A study of Mus musculus with 43 samples.

Results

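For every gene, the change that loss of Polycomb repressive complex 1 (PRC1) activity made in mouse oocytes was set against the change made by loss of PCGF1 and PCGF6. The quantity is a difference of 2 changes in log2(RPKM + 1), the PRC1-CD minus PRC1-WT change less the DKO minus WT change. RPKM are reads scaled to transcript length and to the number of mapped reads. A positive difference marks a gene that moved further up, or less far down, in the catalytic-dead oocytes. A gene was tested where at least 1 of the 4 groups had a mean of 1 RPKM or more, and 13629 of the 35815 gene symbols found in both oocyte tables met that. Of the tested genes, 1610 had a mean under 1 RPKM in both control groups and so entered through a mutant group.

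All 10 libraries used, of 43 in the series, came from full-grown oocytes (FGO), the last growth stage before meiotic maturation. The catalytic-dead set had 2 libraries of PRC1-WT (genotype given as wild type) and 2 of PRC1-CD (PRC1 catalytic dead), each from 10 pooled oocytes. The knockout set had 3 libraries of WT and 3 of DKO, the Pcgf1/6 double knockout. The labels do not state the alleles, the Cre driver, the strain or age of the mice, or whether libraries came from separate animals, so p-values measure the spread between these libraries only. Mutation, control set and table of values changed together, and their parts in a difference cannot be told apart. In the second PRC1-CD library the tissue label reads embryo while title and stage read oocyte. In libraries of pooled cells, fewer cells with a transcript and less transcript per cell cannot be told apart.

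PRC1 places a single ubiquitin on lysine 119 of histone H2A through its RING1 and RNF2 subunits, and this mark goes with gene silencing. The enzyme works in several variants, each built on 1 PCGF protein, which takes the complex to its own set of sites. PCGF1 belongs to PRC1.1, whose KDM2B subunit binds unmethylated CpG-rich DNA, and PCGF6 to PRC1.6, whose MGA and E2F6 subunits bind E-box and E2F motifs near germline genes. A catalytic mutation takes the activity from all variants, whereas the double knockout takes away PRC1.1 and PRC1.6 and leaves those built on other PCGF proteins.

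Oocyte identity was checked first. The 10 oocyte markers (among them Gdf9, Zp3 and Mos) each had a group mean of at least 203 RPKM in all 4 groups. Granulosa and cumulus markers, for the cells that surround the oocyte, summed to 36.9 to 39.0 RPKM in PRC1-WT libraries, 105 to 121 in PRC1-CD, 32.1 to 36.1 in WT and 35.8 to 47.4 in DKO. Of those 30 markers 5, 8, 4 and 6 reached a mean of 1 RPKM, and 7, 3, 8 and 4 were listed at 0 in every library of the group. Ereg was at 0 in all 4 groups, Areg in both control groups and DKO, and Amh in WT and PRC1-CD. The 20 markers of stroma, vessel and blood summed to 7.65 to 17.6 RPKM in any library. Mitochondrial transcripts made up 1.31 to 2.11% of the summed values in the catalytic-dead set and 0.724 to 1.07% in the knockout set. The median SD of a gene on the log2 scale was 0.137 and 0.136 in PRC1-WT and PRC1-CD, 0.0944 in WT and 0.121 in DKO.

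Pcgf1 and Pcgf6, the knocked-out genes, came first. Pcgf1 stood at 1350 and 1234 RPKM in PRC1-WT, at 1411 and 1598 in PRC1-CD, 1094, 1153 and 1077 in WT and 10.6, 12.9 and 13.4 in DKO. The DKO libraries lay far below all others, and the difference was 6.61 ± 0.15 (SE; limma adjusted p = 7.35e-09). Pcgf6 stood at 161 and 183 RPKM in PRC1-WT, at 246 and 206 in PRC1-CD, 148, 159 and 155 in WT and 60.3, 56.0 and 55.1 in DKO, so that part of its transcript was still counted in the knockout. Pcgf6 also rose by 0.39 in PRC1-CD (limma adjusted p = 0.0157).

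The catalytic subunits did not give a called difference. Ring1 stood at 3.15 and 3.24 RPKM in the PRC1-WT pair and 3.76 and 2.42 in the PRC1-CD pair, but between 0.02 and 0.17 in the WT and DKO libraries. Ring1 thus stood higher in both groups of the catalytic-dead set, on tables that were normalised separately, and its difference was not called ( −0.18 ± 0.20, limma adjusted p = 0.63). Rnf2, at 36.1 to 71.1 RPKM in all libraries, gave 0.00 ± 0.26. A transcript level does not check a mutation of the enzyme's active site.

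Among the 13629 genes the difference was called in 1492 (10.9%, limma, adjusted p under 0.05), above 0 in 1121 (8.23%) and below 0 in 371 (2.72%). It reached 2-fold, a log2 value of 1, in 879 of the called genes. Over all tested genes the median change was 0.04 in PRC1-CD and 0.03 in DKO. The PRC1-CD change itself was called up in 3204 genes (23.5%) and down in 1844 (13.5%), the DKO change up in 2236 (16.4%) and down in 1387 (10.2%). Quantile normalisation within each oocyte set, done separately, moved the median PRC1-CD change from 0.039 to −0.095. The called differences then split into 924 above and 582 below 0 (61.4% above, against 75.1%). Without the second PRC1-CD library 982 were above and 409 below 0.

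**Figure D1:**
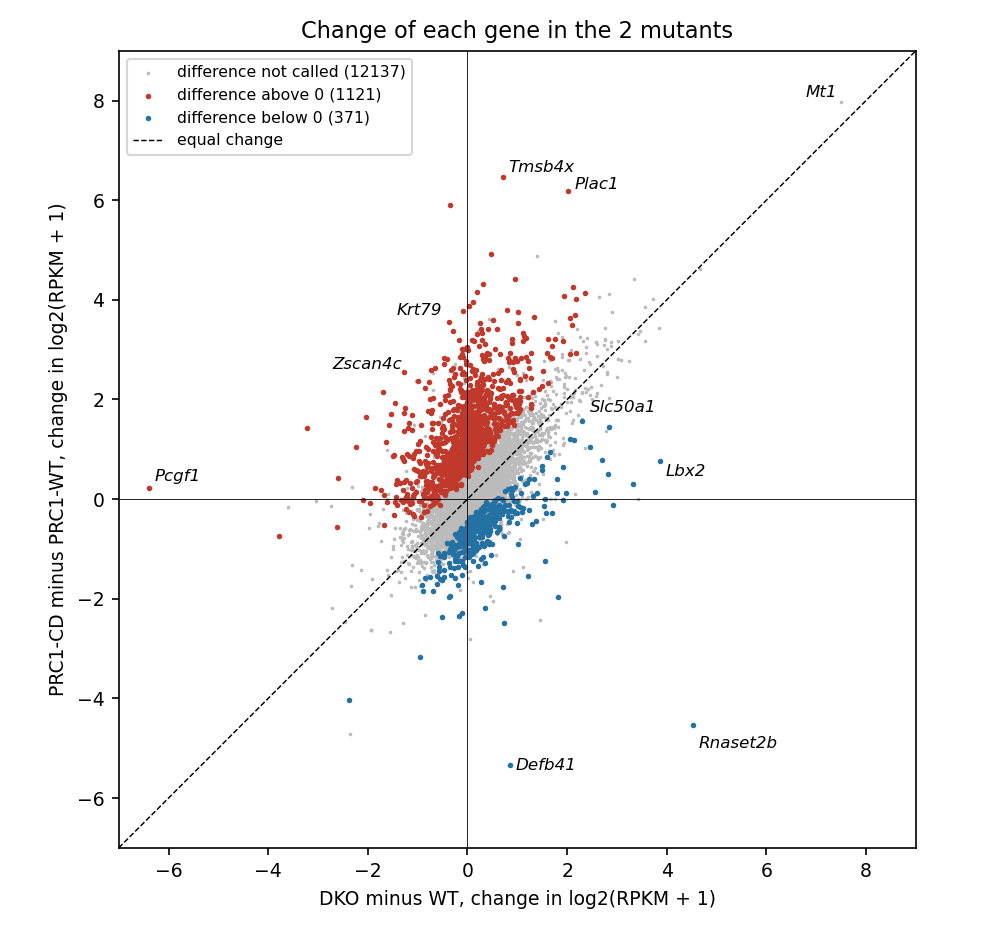
Change of each of 13629 tested genes in log2(RPKM + 1), DKO minus WT on the horizontal axis and PRC1-CD minus PRC1-WT on the vertical axis, with the dashed line at equal change. Red points are the 1121 genes with a called difference above 0, many of them near 0 on the DKO axis, and blue points the 371 below 0. Mt1 lies near the line at 7.97 and 7.49.

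By direction, 994 genes rose more in PRC1-CD and 136 rose more in DKO, while 251 fell more in PRC1-CD and 230 fell more in DKO. A gene called in opposite directions is in 2 of these classes. Of the 994, DKO was called up in 183, not called in 699 and called down in 112. In 390 the 95% interval of the DKO change lay within −0.5 to 0.5. Both control means were under 1 RPKM in 577 of the 994, and 498 passed the level filter through PRC1-CD alone, which favours a difference above 0. Of all 927 tested genes that passed in this way, 502 had a called difference. With a mean of 1 RPKM asked for in each table, 417 genes rose more in PRC1-CD. Of the 136 genes that rose more in DKO, PRC1-CD was called up in 14, not called in 98 and called down in 24.

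Genes called in 1 mutant were then read in the other by size of change, in the same bins. Of genes called up in PRC1-CD, DKO was called up in 48.9% of 1097 at 1 to 2 log2 units, 54.4% of 241 at 2 to 3 units and 63.1% of 84 at 3 or more. Of genes called up in DKO, PRC1-CD was called up in 85.6% of 418, 96.1% of 77 and 83.3% of 18 in those bins. For falls of 1 log2 unit or more the order was the other way. Of genes called down in PRC1-CD, DKO was called down in 58.9% of 202, 7 of 12 and 3 of 5, and of genes called down in DKO, PRC1-CD was called down in 40.9% of 159, 7 of 14 and 0 of 4. Those 4 include Pcgf1 itself. Most falls were smaller than 1 unit, and there the order was that of the rises. DKO was called down in 32.1% of 1625 such PRC1-CD falls, and PRC1-CD in 47.8% of 1210 such DKO falls. All these genes were chosen on one change and read on the other, from separate libraries, and the counts carry no test. Both calls used 1 spread estimate per gene over all 10 libraries, so they are not independent. The PRC1-CD call rests on 2 libraries a group and the DKO call on 3, so shares called are not of equal power.

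The genes that follow are led by those that rose more in PRC1-CD. 5 promoters are printed to show how unlike the CpG content of the gene classes was, each from 250 bases before to 50 after the RefSeq start (GRCm38.p6), 5′ to 3′ on the gene's strand, with every CG in capitals. Tmsb4x (chrX:167209169-167209468, minus strand) stands for rises larger in PRC1-CD, Rnaset2b (chr17:6978610-6978909, plus strand) for rises larger in DKO and Slc50a1 (chr3:89270521-89270820, minus strand) for rises of equal size. Krt79 (chr15:101940275-101940574, minus strand) and Fshr (chr17:89200626-89200925, minus strand) were chosen after their values were seen, as strong PRC1-CD rises with few CG.
Tmsb4x: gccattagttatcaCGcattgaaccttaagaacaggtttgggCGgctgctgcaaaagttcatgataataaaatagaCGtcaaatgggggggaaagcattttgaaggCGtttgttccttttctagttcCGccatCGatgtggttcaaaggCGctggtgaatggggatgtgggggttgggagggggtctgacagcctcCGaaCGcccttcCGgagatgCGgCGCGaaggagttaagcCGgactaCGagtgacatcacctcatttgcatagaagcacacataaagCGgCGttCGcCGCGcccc
Rnaset2b: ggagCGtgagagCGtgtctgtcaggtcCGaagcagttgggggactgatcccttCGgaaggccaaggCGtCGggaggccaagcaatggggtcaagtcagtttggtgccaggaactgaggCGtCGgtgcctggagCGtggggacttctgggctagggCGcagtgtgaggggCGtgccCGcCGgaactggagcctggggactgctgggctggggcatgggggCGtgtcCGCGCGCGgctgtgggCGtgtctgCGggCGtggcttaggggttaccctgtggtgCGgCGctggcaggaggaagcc
Slc50a1: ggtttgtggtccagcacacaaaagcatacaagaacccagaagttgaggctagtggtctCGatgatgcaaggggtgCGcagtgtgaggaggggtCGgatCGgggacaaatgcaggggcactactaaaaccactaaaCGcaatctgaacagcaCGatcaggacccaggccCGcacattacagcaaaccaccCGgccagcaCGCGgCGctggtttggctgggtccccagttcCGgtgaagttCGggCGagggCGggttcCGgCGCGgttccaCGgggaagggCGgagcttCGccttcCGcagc
Krt79: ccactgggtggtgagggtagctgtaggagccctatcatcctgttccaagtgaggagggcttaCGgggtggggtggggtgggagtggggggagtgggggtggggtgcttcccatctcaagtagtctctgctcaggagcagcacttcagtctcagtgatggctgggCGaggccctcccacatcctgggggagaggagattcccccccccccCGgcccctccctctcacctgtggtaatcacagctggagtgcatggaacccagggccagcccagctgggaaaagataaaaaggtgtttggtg
Fshr: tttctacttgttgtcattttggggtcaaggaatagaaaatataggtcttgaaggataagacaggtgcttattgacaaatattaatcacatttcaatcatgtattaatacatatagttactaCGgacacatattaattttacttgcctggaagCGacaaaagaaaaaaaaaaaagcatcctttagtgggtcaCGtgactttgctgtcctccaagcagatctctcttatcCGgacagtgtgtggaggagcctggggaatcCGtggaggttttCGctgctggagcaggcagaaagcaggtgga

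Tmsb4x encodes thymosin beta 4, which binds actin monomers. It stood at 0.07 and 0.06 RPKM in PRC1-WT, at 147 and 58.9 in PRC1-CD, 0.21, 0.23 and 0.22 in WT and 0.70, 0.62 and 1.91 in DKO. Both PRC1-CD libraries exceeded every other library, and the DKO libraries lay above WT without a called change (0.71, limma adjusted p = 0.112). The difference was 5.75 ± 0.48 (limma adjusted p = 6.48e-05), the largest among the named rises, and 6.4 without the second PRC1-CD library.

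Plac1, an X-linked gene of the placenta, stood at 1.43 and 2.72 RPKM in PRC1-WT, at 177 and 265 in PRC1-CD, 2.91, 4.06 and 3.39 in WT and 23.2, 13.9 and 15.3 in DKO. It rose in both mutants, by 6.18 in PRC1-CD and 2.02 in DKO, and the difference of 4.16 ± 0.36 was called (limma adjusted p = 7.29e-05). Dapl1 stood at 0.43 and 0.59 RPKM in PRC1-WT, at 38.2 and 52.8 in PRC1-CD, 0.67, 0.28 and 0.71 in WT and 1.73, 1.01 and 0.81 in DKO. Its DKO libraries lay above those of WT, at a change of 0.48 that was not called (limma adjusted p = 0.0858).

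Several genes rose in PRC1-CD with no called change in DKO. Krt79, a keratin of skin epithelium, stood at 0.32 and 0.31 RPKM in PRC1-WT, at 15.01 and 13.88 in PRC1-CD, 0.31, 0.90 and 0.59 in WT and 0.29, 0.11 and 0.28 in DKO (difference 3.92 ± 0.22, limma adjusted p = 1.22e-05). Fabp7, the brain fatty acid binding protein, stood at 5.99 and 7.66 RPKM in PRC1-WT, at 89.3 and 125 in PRC1-CD, 9.27, 6.42 and 11.3 in WT and 8.09, 8.57 and 7.91 in DKO. The DKO libraries of Fabp7 lay inside the range of WT, and the 95% interval of its DKO change ran from −0.51 to 0.32. Krt73, a keratin of the hair follicle, went from 3.30 and 1.65 RPKM to 53.3 and 48.9 in PRC1-CD and overlapped between WT (2.37 to 3.20) and DKO (1.83 to 4.71). H2-Bl, a class I histocompatibility gene, was at 10.6 and 18.9 RPKM in PRC1-CD and at 0 in all WT libraries and all but 1 DKO library.

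The Zscan4 genes, a family switched on in the 2-cell embryo, moved in opposite directions. Zscan4c stood at 3.98 and 3.47 RPKM in PRC1-WT, at 22.8 and 31.5 in PRC1-CD, 1.91, 2.75 and 2.66 in WT and 0.37, 0.50 and 0.38 in DKO. No mutant library overlapped its controls, and the changes of 2.56 and −1.27 gave a difference of 3.83 ± 0.23 (limma adjusted p = 1.26e-05). Zscan4d rose from 11.7 RPKM in each PRC1-WT library to 46.2 and 32.7 and fell from 6.83 to 8.54 in WT to 0.62 to 1.48 in DKO. Zscan4f and Zscan4a followed, with differences of 3.24 ± 0.32 and 2.05 ± 0.26. The copies are nearly identical in sequence, and how their reads were shared out is not stated, so values of single copies are uncertain.

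Prl8a2, a prolactin-family hormone of the placenta and decidua, gave the same pattern. It stood at 40.05 and 40.55 RPKM in PRC1-WT, at 164 and 200.45 in PRC1-CD, 30.4, 45 and 49.5 in WT and 22.8, 6.61 and 10.8 in DKO. Its changes of 2.14 and −1.70 were both called, and neither mutant overlapped its control. In all, 112 genes rose in PRC1-CD and fell in DKO, and 14 of these passed the level filter through PRC1-CD alone. Other members were Mgst1, a membrane-bound glutathione transferase (2.59 and −0.74), Hsd11b1, which regenerates active glucocorticoid (2.83 and −0.47), and Pcp4, a calmodulin regulator (2.64 and −0.65). Hsd11b1 passed the filter through PRC1-CD alone, and its DKO fall was between low levels, from 0.47 to 0.90 RPKM in WT to 0.06 to 0.38.

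**Figure D2:**
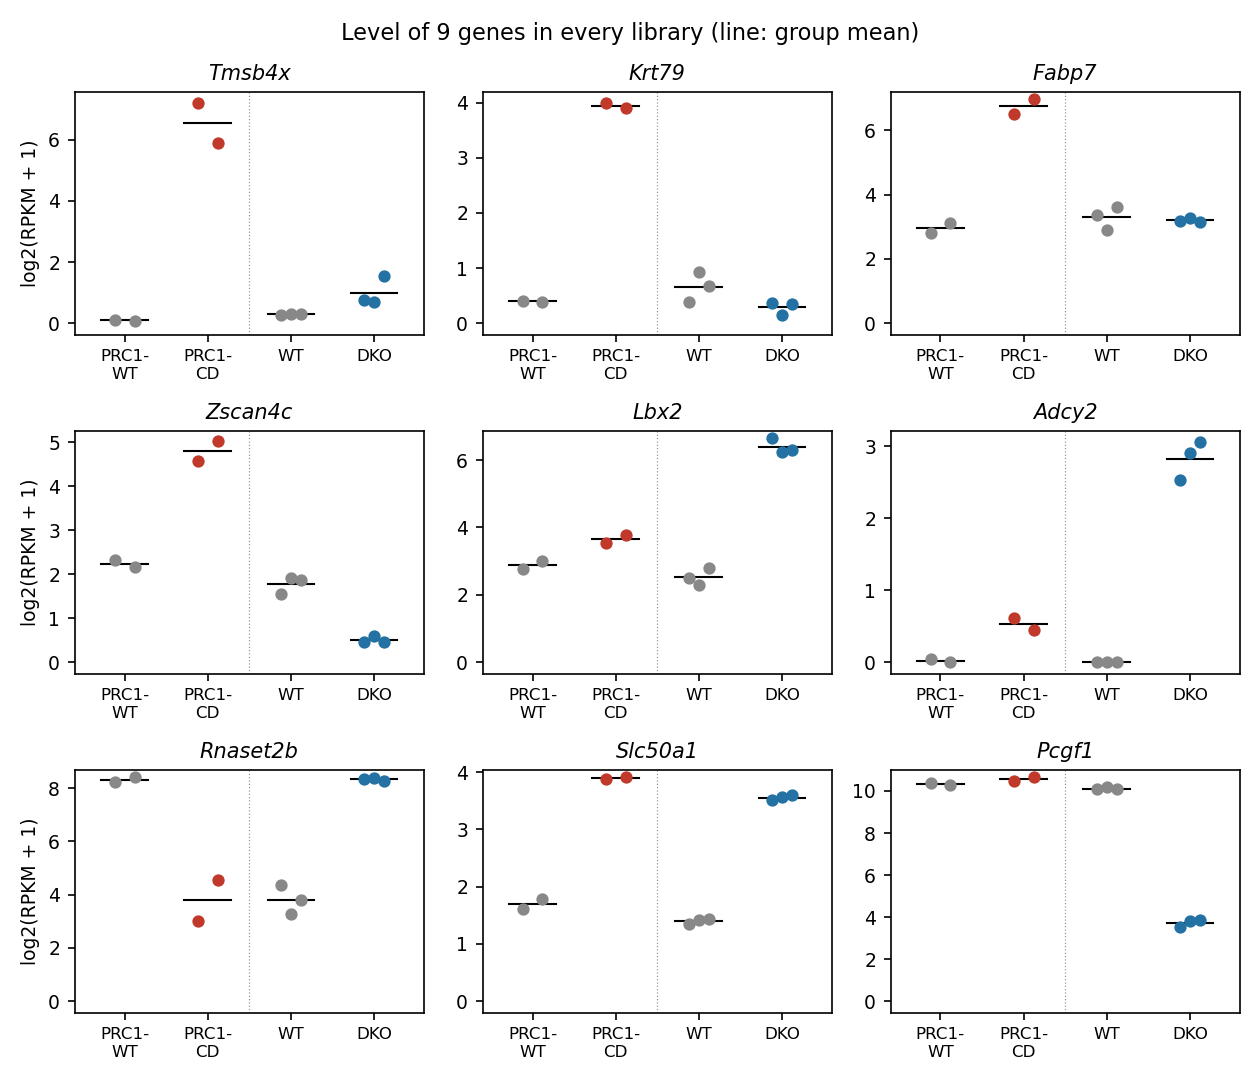
Level of 9 genes in log2(RPKM + 1) in each of 10 libraries, 1 point per library with a line at the group mean; the dotted line parts the 2 tables, which were normalised separately. Tmsb4x, Krt79, Fabp7 and Zscan4c are highest in PRC1-CD, Lbx2 and Adcy2 are highest in DKO, Slc50a1 is high in both mutants, Rnaset2b is high in PRC1-WT and DKO, and Pcgf1 is lowest in DKO.

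Among rises larger in DKO, Lbx2, a homeobox transcription factor gene near Pcgf1, stood at 5.81 and 6.99 RPKM in PRC1-WT, at 10.6 and 12.6 in PRC1-CD, 4.63, 3.88 and 5.90 in WT and 99.2, 74.1 and 77.2 in DKO. It rose by 0.77 in PRC1-CD and 3.87 in DKO, a difference of −3.10 ± 0.24 (limma adjusted p = 4.61e-05). Lbx2 starts at position 83086365 of chromosome 6, and Pcgf1 ends at 83080855 on the same chromosome. The TKO libraries, in which Mll2 is also knocked out, carry the same Pcgf1/6 knockout and stood at 94.3, 90.5 and 98.9 RPKM for Lbx2. Within 1 Mb of Pcgf1, 2 of 25 tested neighbours (8.0%) were called in either direction, Lbx2 and M1ap, against 10.9% of all tested genes. M1ap, a meiosis gene named after its values were seen, rose by 3.66 in PRC1-CD and 1.33 in DKO.

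Adcy2, an adenylyl cyclase, was at 0.03 and 0 RPKM in PRC1-WT, at 0.53 and 0.36 in PRC1-CD, 0 in all WT libraries and 4.77, 6.46 and 7.33 in DKO (difference −2.32 ± 0.22, limma adjusted p = 0.000112). Ctsm, a cathepsin of the placenta, did not pass 0.04 RPKM in any library of the catalytic-dead set or WT and stood at 4.44, 1.94 and 2.37 in DKO. Neither gene's DKO libraries overlapped any other of these groups. Srp68, a subunit of the signal recognition particle, went from 1.92 to 2.49 RPKM in WT to 7.06 to 7.78 in DKO and from 3.49 and 3.31 to 2.31 and 2.17 in PRC1-CD. Tuba1a, an alpha-tubulin, rose in DKO from 0.51 to 0.96 RPKM to 4.13 to 7.95, with overlapping values in the catalytic-dead set. The call for Tuba1a was lost without the first PRC1-CD library (difference −1.46, limma adjusted p = 0.0505), and that for Crym, a thyroid hormone-binding protein, was lost without the first or second PRC1-WT library, the second PRC1-CD library, any 1 WT library or the third DKO library (limma adjusted p from 0.0527 to 0.144).

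Adcy2 and Ctsm both lie on chromosome 13, where 20 of 603 tested genes (3.32%) rose more in DKO, against 0.973% of all 13261 placed genes. A stretch from 60 to 70 Mb, chosen after its values were seen, held 12 of them among 83 tested genes (14.5%), against 0.888% of the 13178 placed genes outside it. Besides Adcy2 and Ctsm these were Mterf3, a mitochondrial ribosome assembly factor, Fastkd3, a mitochondrial RNA-binding protein, the zinc finger gene Zfp729a and 7 clone-named genes. Mterf3 stood at 10.8 and 15.3 RPKM in PRC1-WT, a mean of 20.8 in PRC1-CD, 11.1 in each WT library and 52.1, 34.2 and 49.6 in DKO. Fastkd3 stood at 13 to 15.6 RPKM in the catalytic-dead set, 12.3 to 12.8 in WT and 24.3 to 25.4 in DKO. In none of the 12 was the gap between the control groups larger than that between the mutants.

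Among falls larger in PRC1-CD, Defb41, a beta-defensin, stood at 42.1 and 39.7 RPKM in PRC1-WT, at 0 and 0.09 in PRC1-CD, 50.7, 44.96 and 33.5 in WT and 146, 41.6 and 76.2 in DKO. The PRC1-CD libraries lay far below PRC1-WT, while DKO overlapped WT (difference −6.18 ± 0.55, limma adjusted p = 8.63e-05). Defb41 stood at 565, 882 and 806 RPKM in the TKO libraries. Erdr1 fell from 3.70 and 6.68 to 0.08 and 0.06 RPKM in PRC1-CD and stood at 4.91 to 5.93 in WT and 4.75 to 15.1 in DKO. Slc7a9, the light subunit of a cystine transporter, fell in both, to 0 and 1.43 RPKM from 13.9 and 12.1 in PRC1-CD and to 11.6 to 14.3 from 23.2 to 26.9 in DKO. The Slc7a9 difference of −2.21 was called at a pseudocount of 1 and not at 0.1 (limma adjusted p = 0.0582).

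Some differences came with unlike controls. Rnaset2b, a lysosomal ribonuclease, had a difference of −9.07 ± 0.55 (limma adjusted p = 1.26e-05). It stood at 299.9 and 339 RPKM in PRC1-WT, at 7.05 and 22.5 in PRC1-CD, 19.5, 8.73 and 12.8 in WT and 326, 329 and 311 in DKO. PRC1-WT was thus close to DKO and PRC1-CD close to WT. Its near-identical copy Rnaset2a stood at 1265 to 1804 RPKM in all 10 libraries, and the sharing of reads between the copies is not stated.

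Prr18 and the small nucleolar RNA gene Snora43 showed the same crossed levels. Prr18 stood at 2.24 and 1.98 RPKM in PRC1-WT, at 0.10 and 0.03 in PRC1-CD, 0.01, 0 and 0.01 in WT and 1.33, 1.25 and 1.47 in DKO. Snora43 was at 2.62 and 0.57 RPKM in PRC1-WT and 1.43, 2.07 and 2.46 in DKO and at 0 in the other libraries of these groups. Of 28 placed genes with a called difference and control means at least 1 log2 unit apart, 4 had PRC1-WT within 0.5 of DKO and PRC1-CD within 0.5 of WT, and 3 of those 4, Rnaset2b, Prr18 and Gm41519, lie on chromosome 17 between 5 and 9 Mb, with 30 tested genes there. This pattern was looked for after the values were seen, and its cause was not tested. Spry1, an inhibitor of growth factor signalling counted among rises larger in DKO, had controls at 37.8 and 30.01 against 9.09, 10.5 and 8.77 RPKM and mutants at 22.1 and 17.4 against 17.4, 18.3 and 14.0.

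Over each class, the gap between the 2 control means was larger than that between the mutant means in 4.23% of rises larger in PRC1-CD, 31.6% of rises larger in DKO, 25.9% of falls larger in PRC1-CD and 6.96% of falls larger in DKO, against 40.0% of all tested genes. Levels here are set across tables that were normalised separately. The difference is the mutant gap less the control gap, and the classes were chosen on it, so these shares partly follow from the choice. Of the 994 rises larger in PRC1-CD, 577 had both control means under 1 RPKM, which keeps their control gap small.

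**Figure D3:**
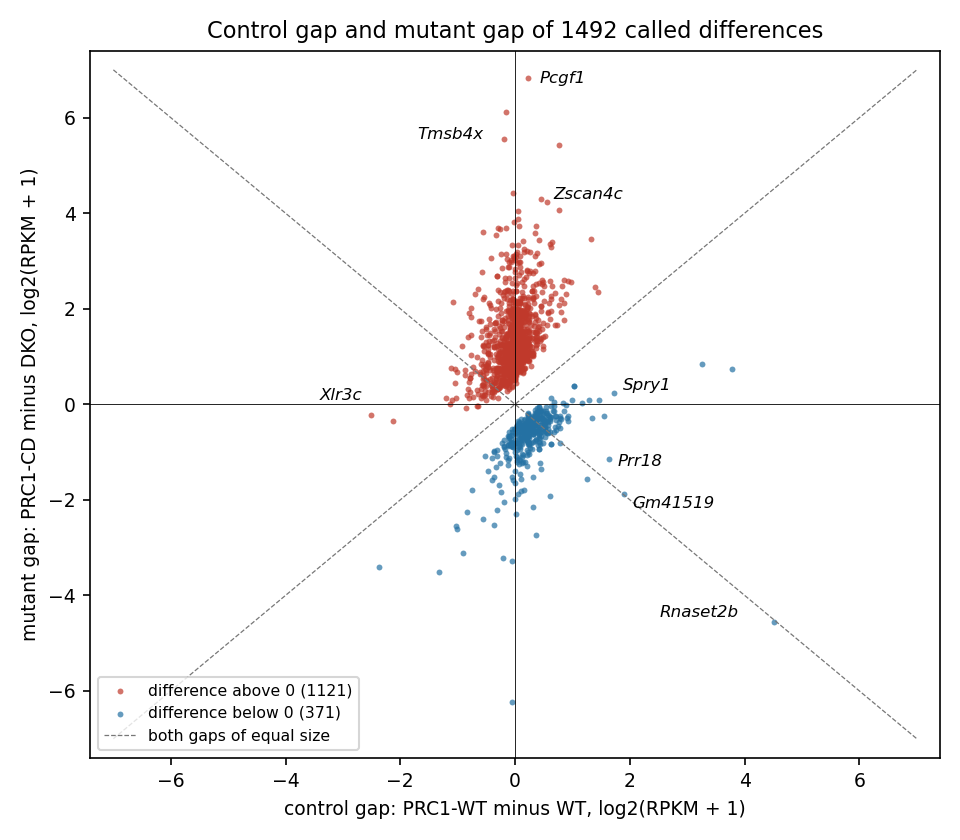
Gap between controls (PRC1-WT minus WT, horizontal) and between mutants (PRC1-CD minus DKO, vertical) in log2(RPKM + 1) for the 1492 called differences, with dashed lines where both gaps are of equal size. Most red points (difference above 0) rise along the vertical axis, where controls are alike, whereas Rnaset2b and Gm41519 sit on the falling diagonal and Xlr3c and Spry1 near the horizontal axis.

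Genes that moved equally in both mutants form the other side of the comparison. Both changes were called up in 1496 genes and down in 650, and in 281 of the rises and 212 of the falls the 95% interval of the difference lay within −0.5 to 0.5. Slc50a1, a sugar transporter, stood at 2.07 and 2.45 RPKM in PRC1-WT, at 13.8 and 14.0 in PRC1-CD, 1.55, 1.67 and 1.69 in WT and 10.4, 10.8 and 11.1 in DKO. The difference was 0.04 ± 0.15, and neither mutant overlapped its control. Smyd2, a lysine methyltransferase, rose by 1.85 in PRC1-CD and 1.87 in DKO, and Id2, an inhibitor of helix-loop-helix transcription factors, by 1.48 and 1.46. Adad1, a germ cell RNA-binding protein, was at 2.40 and 2.58 RPKM in PRC1-CD and 2.99, 1.92 and 2.80 in DKO, with controls at 0 to 0.05. Among shared falls, St3gal5, which makes the ganglioside GM3, dropped by 1.13 and 1.01. Mt1, a metallothionein chosen after its values were seen, went from 1.57 and 1.56 to 547 and 750.04 RPKM in PRC1-CD. In the knockout set Mt1 stood at 2.83, 2.68 and 2.83 RPKM in WT and at 640, 716 and 686 in DKO. Its difference of 0.47 ± 0.17 was not called (limma adjusted p = 0.112), but without the first PRC1-CD library it was 0.70 and called (limma adjusted p = 0.00648).

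Gene lists were then read by role, beside 8.23% of all tested genes called above 0 and 2.72% below, at a median difference of −0.01. These shares are not matched for level. Of the 1610 tested genes with both control means under 1 RPKM, 581 were called above 0. Of the 927 that passed through PRC1-CD alone, 502 were called above 0. Lists rich in such genes, as those of Hox, homeobox and H3K27me3-imprinted genes, cannot be set against 8.23% alone. Subunits of the Polycomb system gave few calls. Of 11 tested PRC2 subunits, 8 of the PCGF3/5 complex and 10 catalytic and canonical PRC1 subunits none was called by limma in either direction, with 1, 0 and 0 past an unadjusted p of 0.05. Of all 13629 tested genes, 2093 above 0 and 1333 below 0 passed that unadjusted level. In turn 1 of 8 PRC1.1 and 1 of 9 PRC1.6 subunits were called, the targeted Pcgf1 and Pcgf6. Pcgf5, the core of another variant, rose in both mutants, from 7.73 and 8.75 RPKM to 23.3 and 18.2 in PRC1-CD and from 5.39 to 6.88 to 11.9 to 14.0 in DKO (difference 0.24 ± 0.20, limma adjusted p = 0.508). Cbx8, a chromodomain subunit of canonical PRC1, rose by 0.89 and 0.48.

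Developmental regulators are textbook targets of Polycomb silencing. Of 76 homeobox and T-box genes 30 were tested, 17 of them with both control means under 1 RPKM and 7 through PRC1-CD alone. The PRC1-CD change was called up in 23 and down in 1 (Tbx4), the DKO change up in 19 and down in 2 (Alx1 and Lbx1), and the difference was above 0 in 13 and below 0 in 4 (median 0.68). Pax6, a regulator of eye and brain, stood at 0.45 and 0.52 RPKM in PRC1-WT, at 13.6 and 12.2 in PRC1-CD, 0.31, 0.34 and 0.35 in WT and 2.45, 0.93 and 1.31 in DKO. It rose in both, by 3.22 and 0.90. Prrx1, a mesenchyme regulator, rose in PRC1-CD to 3.33 and 2.72 RPKM and was at 0.04 or less in DKO, below WT at 0.06 to 0.15, a DKO change that was not called (−0.11, limma adjusted p = 0.463). The 4 members below 0 were Lbx2, Isl2, Nkx6-2 and Tbx4.

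Among 9 tested Hox genes, which pattern the body axis, PRC1-CD was called up in 9 and DKO in 7, and the difference was above 0 in 4 (Hoxd13, Hoxb2, Hoxd9 and Hoxd1). Of those tested, 8 had control means under 1 RPKM and 3 passed through PRC1-CD alone. Hoxd13 stood at 0.39 and 0.47 RPKM in PRC1-WT, at 7.79 and 7.38 in PRC1-CD, 0.47, 0.31 and 0.33 in WT and 0.06, 0.12 and 0.08 in DKO. It rose in PRC1-CD by 2.59 and fell in DKO by 0.33 (limma adjusted p = 0.0308), while Hoxd1, of the same cluster, rose in both, by 2.94 and 2.18. The call for Hoxd9 was lost without the first PRC1-WT, the second PRC1-CD, any 1 WT or the second or the third DKO library (limma adjusted p from 0.0512 to 0.101). That for Hoxd1 was lost without the first PRC1-WT, the first PRC1-CD, any 1 WT or the second or the third DKO library (limma adjusted p from 0.0517 to 0.0799). At a pseudocount of 0.1 the difference of Hoxd1 was 0.07 (limma adjusted p = 0.939), and Hoxb2 and Hoxd9 were not called either (0.0591 and 0.0672).

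Of 28 other developmental transcription factors 9 were above and 1 below 0 (median 0.46), with 7 passed through PRC1-CD alone. Gata6, of primitive endoderm, stood at 3.42 and 2.83 RPKM in PRC1-CD and at 0.09 to 0.16 in DKO against 0.09 to 0.19 in WT. Of 13 tested WNT, FGF, BMP and GDF ligands 4 were above and 2 below 0 (median −0.07), and 3 of those above, Fgf20, Bmp2 and Wnt5a, passed the level filter through PRC1-CD alone. Fgf20 and Bmp2 rose in PRC1-CD, to 2.44 and 2.65 and to 1.6 and 1.27 RPKM, and did not pass 0.07 in WT or DKO. Fgf8, a growth factor that oocytes secrete, fell in PRC1-CD from 141 and 138 to 92.3 and 85.1 RPKM and rose in DKO from 98.0 to 110.3 to 129 to 158 (changes of −0.65 and 0.40, limma adjusted p of their difference = 0.0012).

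Germline genes are known targets of PRC1.6. Of 32 tested meiotic genes the PRC1-CD change was called up in 21 and the DKO change in 16, and the difference was above 0 in 7 and below 0 in none (median 0.27). Rbm46, a germ cell RNA-binding protein chosen after its values were seen, rose by 4.61 and 4.67. Hormad1, of the meiotic chromosome axis, stood at 1.04 and 1.17 RPKM in PRC1-WT, at 25.7 and 26.7 in PRC1-CD, 0.82, 0.86 and 1.71 in WT and 13.3, 7.44 and 5.78 in DKO. The difference of 1.53 ± 0.39 was called (limma adjusted p = 0.0316), but not after any 1 library of the catalytic-dead set was left out, nor without the third WT or the second or the third DKO library (limma adjusted p from 0.0556 to 0.0959). Sycp2, of the synaptonemal complex, fell in DKO from 19.19 to 22.49 to 11.9 to 13.6 RPKM and overlapped between PRC1-WT (21.9 and 18.7) and PRC1-CD (25.02 and 20.6), and this difference of 0.80 ± 0.17 kept its call in each of those fits. In the piRNA list, which guards the germline against transposons, 2 of 18 were above 0, Mael and Tdrd9. Mael lost its call without the second PRC1-WT, the second PRC1-CD or the second or the third DKO library (limma adjusted p from 0.0513 to 0.0571), and Tdrd9 lost it without any 1 library other than the first of DKO (0.0663 to 0.108). Sohlh1, a factor of early follicles, was at 8.57 and 9.19 RPKM in PRC1-CD and 2.52 to 3.56 in DKO, against 0.06 to 0.14 in the controls.

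Genes imprinted through maternal H3K27me3, a silent state handed from oocyte to embryo, were mostly low in the controls. Of 14 tested, 10 had both control means under 1 RPKM and 4 passed through PRC1-CD alone. PRC1-CD was called up in 12 and DKO in 10, with Matn1 and Rftn2 called in neither, and the difference was above 0 in 5 (Smoc1, Flt1, Enc1, Runx1 and Hunk) with a median of 0.36. Flt1, a VEGF receptor, stood at 2.03 and 1.43 RPKM in PRC1-WT, at 8.90 and 9.44 in PRC1-CD, 1.59, 1.6 and 2.37 in WT and 2.92, 3.06 and 3.40 in DKO. At a pseudocount of 0.1 Smoc1, Enc1 and Runx1 were not called (limma adjusted p = 0.061, 0.128 and 0.0826). Smoc1 was at 4.05 and 4.18 RPKM in PRC1-CD and at 1, 0.01 and 0.04 in DKO, so that 1 DKO library stood apart. Sall3 was raised equally (2.09 and 2.07, chosen after its values were seen).

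Some lists held members of unlike behaviour. Of 16 tested 2-cell genes 6 were above 0, the 4 Zscan4 genes, Usp17lb and Obox6, and 1, the zinc finger gene Zfp809, was below. Through PRC1-CD alone 5 of the 16 passed the level filter, Usp17lb and Obox6 among them. Ly6a, a surface protein of stem cells, stood at 10.7 and 12.1 RPKM in PRC1-WT, at 43.7 and 42.4 in PRC1-CD, 9.51, 10.4 and 10.4 in WT and 5.16, 4.16 and 2.21 in DKO, and rose in one mutant and fell in the other. Of 11 tested Xlr family genes, X-linked and multicopy, 6 were above 0, but in 5 of these 6 the control gap was the larger one. Xlr3c stood at 14.1 and 14.6 RPKM in the PRC1-WT pair and 59.8 and 75.7 in the PRC1-CD pair, against 75.1 to 103.8 in WT and 64.8 to 107.7 in DKO. Of 8 tested granulosa markers 3 were above 0: Fshr, the follicle-stimulating hormone receptor, Ptgs2, a prostaglandin synthase, and Cyp19a1, the aromatase. Fshr and Ptgs2 passed the level filter through PRC1-CD alone. Cyp19a1 stood at 15.8 to 18.6 RPKM in the catalytic-dead set and fell from 22.1 to 25.6 in WT to 13.8 to 16.1 in DKO, and its difference lost its call without the first PRC1-WT, the second PRC1-CD or any 1 knockout-set library (limma adjusted p from 0.0526 to 0.114). Fshr stood at 0.60 and 0.50 RPKM in PRC1-WT, at 18.57 and 12.02 in PRC1-CD, 0.61, 0.35 and 0.47 in WT and 0.06, 0.30 and 0.25 in DKO. The summed granulosa markers given above were also higher in PRC1-CD, and their part in this and the other PRC1-CD rises was not tested.

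Of 10 tested Ly6 surface protein genes 4 were above 0 and of 16 glutathione transferases 5, with 1 member of each list, Ly6k and Gsta1, passed through PRC1-CD alone. Of 32 genes imprinted through DNA methylation 3 were above 0 (9.38%), near the share of all tested genes. None of these lists had a call below 0 by limma. Below 0, 0, 2 and 1 members passed an unadjusted limma p of 0.05, against 1333 of all 13629 tested genes. Ly6g6e stood at 0.24 and 1.24 RPKM in PRC1-WT, at 30.6 and 39.5 in PRC1-CD, 1.03, 1.04 and 1.67 in WT and 5.56, 2.69 and 2.29 in DKO, and rose in both mutants by 4.42 and 0.95. Ly6k was at 9.93 and 7.56 RPKM in PRC1-CD and did not pass 0.55 in any other of these libraries. Slc22a18, an imprinted transporter that passed through PRC1-CD alone, rose in PRC1-CD from 0.79 and 0.85 to 4.62 and 5.42 RPKM and overlapped between WT (0.23 to 0.55) and DKO (0.48 to 0.75). Gstp2 rose in PRC1-CD from 8.45 and 13.5 to 38.9 and 35.5 RPKM, and all its DKO libraries (13.4 to 17.5) lay below WT (17.8 to 23.5) without a called change.

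Trophectoderm and placental genes held 5 calls above 0 among 18 tested, Plac1, Ly6a, Tfap2a, Eomes and Tead4, of which the last 3 passed the level filter through PRC1-CD alone. Tfap2a, a regulator of trophoblast and ectoderm, stood at 0.69 and 0.83 RPKM in PRC1-WT, at 7.02 and 6.34 in PRC1-CD, 0.75, 0.61 and 0.60 in WT and 1.05, 0.92 and 0.94 in DKO. Its DKO change of 0.25 was not called (limma adjusted p = 0.0906). Of 3 tested stroma, vessel and blood markers 1 was above 0, Dcn, the matrix protein decorin. Dcn rose in PRC1-CD from 0.97 and 1.03 to 5.91 and 4.92 RPKM and fell in DKO from 1.98 to 3.04 to 0.40 to 0.86. Iqcf1 had a difference of 4.66 ± 1.24 (limma adjusted p = 0.038) with 1 DKO library at 10.8 RPKM and the others at 0, and the call was lost without any 1 library other than the first of DKO.

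Of stress and death genes, 3 of 21 p53 and apoptosis genes were above and 1 below 0, and 3 of 19 genes of the integrated stress response were above (1 of these, Vldlr, passed through PRC1-CD alone). Fas, a death receptor, stood at 0.83 and 0.60 RPKM in PRC1-WT, at 13.9 and 8.34 in PRC1-CD, 1.19, 0.56 and 0.97 in WT and 1.06, 1.44 and 1.64 in DKO. Hmox1, which degrades haem, rose in both, to 6.97 and 6.75 RPKM in PRC1-CD and 0.68 to 1.47 in DKO, from 0.09 to 0.22. Mt4, a metallothionein of squamous epithelia, rose in PRC1-CD from 18.1 and 18.5 to 92.4 and 109.6 RPKM and overlapped between WT and DKO, unlike Mt1. None of 82 cytosolic ribosomal protein genes and none of 13 mitochondrial transcripts was called by limma. Past an unadjusted limma p of 0.05 were 3 and 1, all above 0, against 2093 above 0 among all 13629 tested genes. Of 261 tested zinc finger genes 14 were above and 7 below 0.

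**Figure D4:**
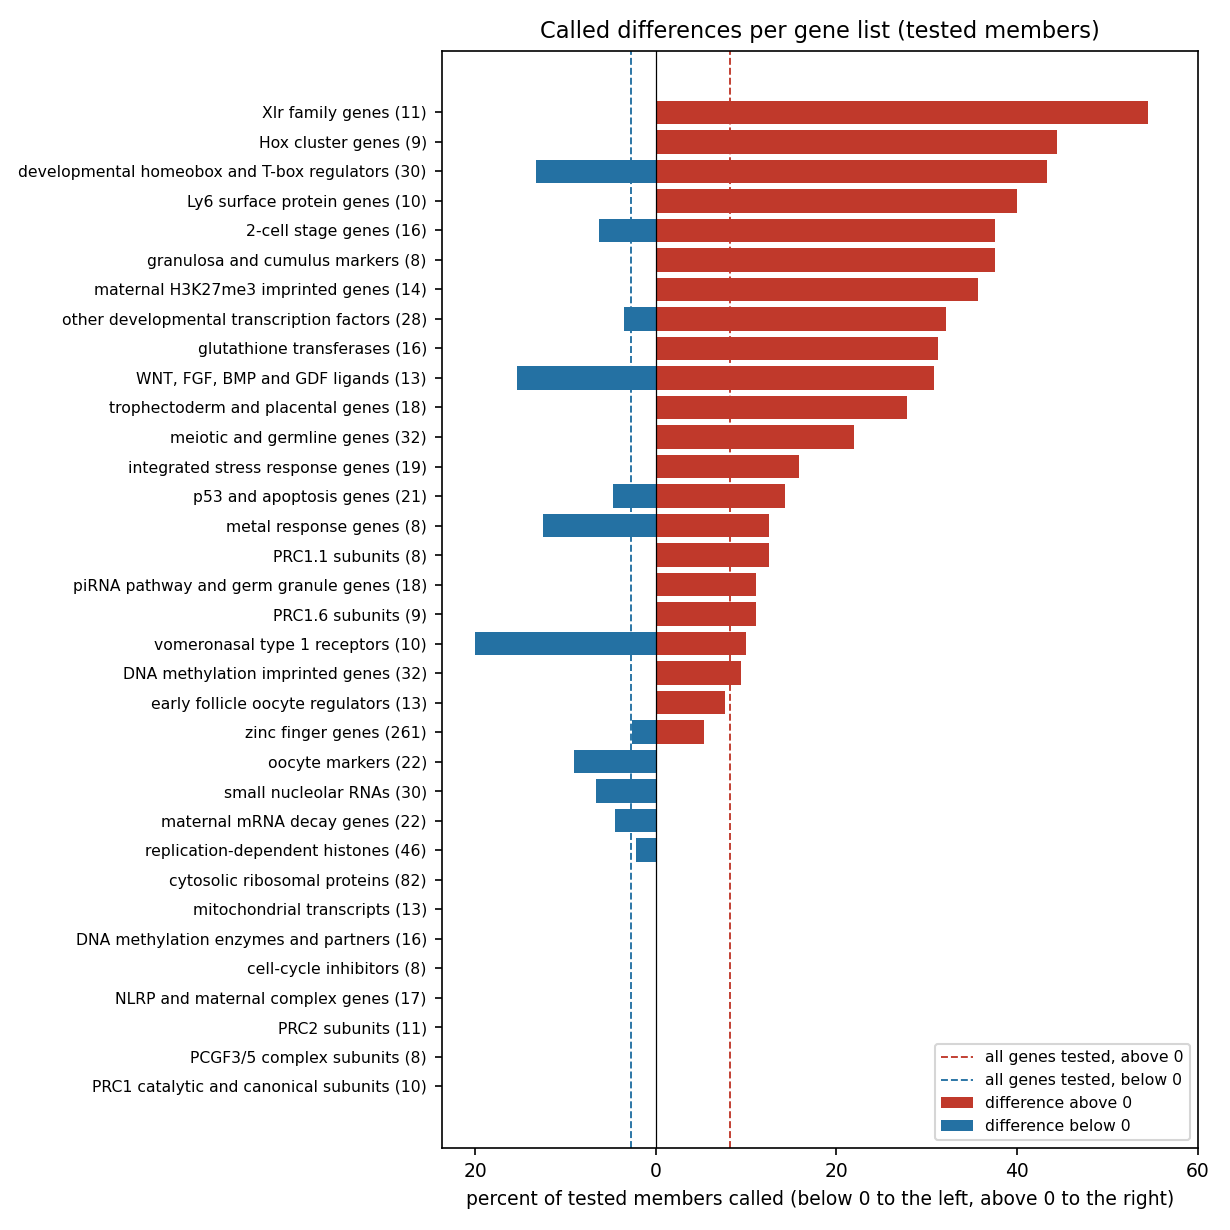
Percent of the tested members of each gene list with a called difference above 0 (red, to the right) or below 0 (blue, to the left); lists with 8 or more tested members are drawn, with the number tested in brackets. Dashed lines mark all tested genes, at 8.23% above and 2.72% below 0. They are not matched for control level, and several lists hold mainly genes under 1 RPKM in both control groups.

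Promoters were read from RefSeq entries, which 10499 of the 13629 tested genes had, and the CpG observed/expected ratio was taken from the richest start of a gene. The median ratio was 0.751 over all tested genes, 0.747 for genes called up in both mutants and 0.806 for shared rises. It was 0.476 for rises larger in PRC1-CD, and within these 0.684 where DKO was also called up, 0.436 where DKO was not called and 0.389 where DKO was called down. Rises larger in DKO had a median of 0.711 and falls larger in DKO one of 0.381. Among genes with both control means under 1 RPKM, the median was 0.440 for PRC1-CD rises without a DKO rise and 0.752 for rises in both, against 0.573 for all such genes. With both control means at 1 RPKM or more the medians were 0.417, 0.748 and 0.776. This split by level was chosen after values were seen, and no test was made.

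**Figure D5:**
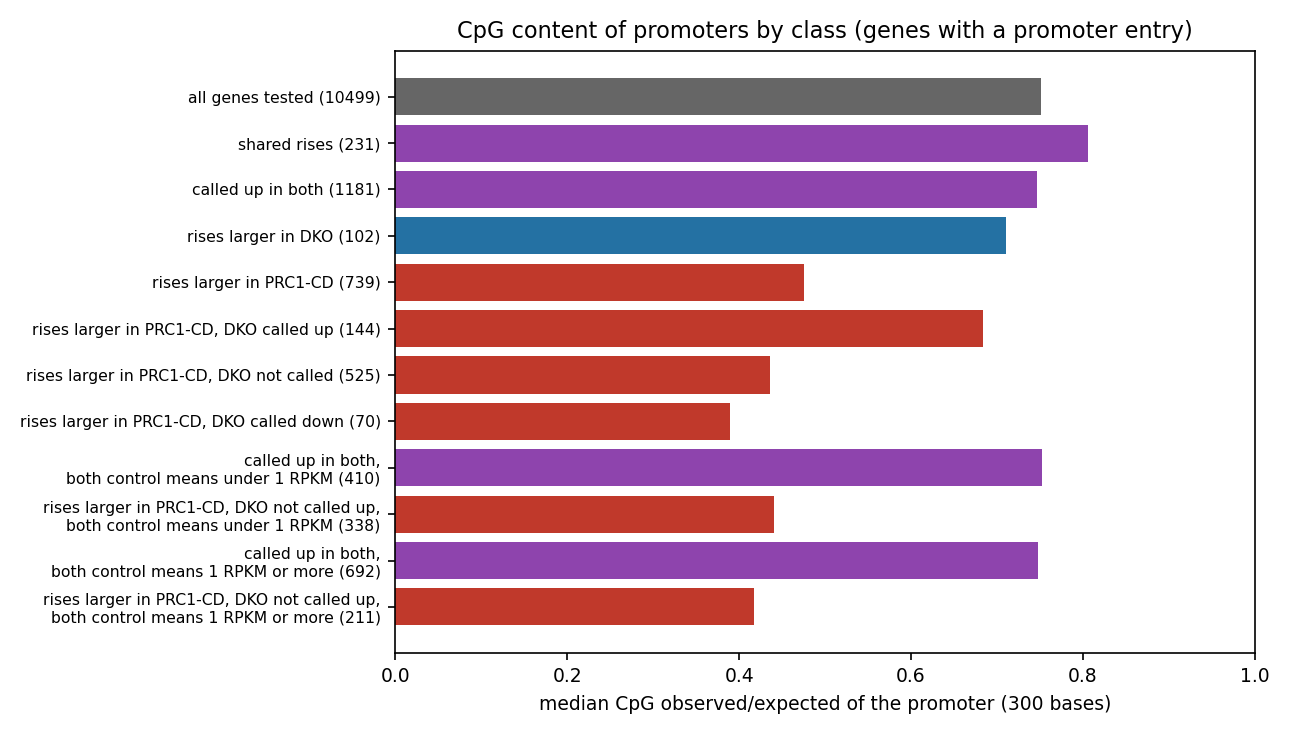
Median CpG observed/expected ratio of 300-base promoters for 12 gene sets, with the number of genes that have a promoter entry in brackets. The sets called up in both and the shared rises (purple) lie between 0.747 and 0.806, rises larger in PRC1-CD with DKO called up at 0.684, and PRC1-CD rises without a DKO call (red) at 0.436. Those without a DKO rise lie at 0.440 and 0.417 below and above control means of 1 RPKM.

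The printed promoters show this range. Those of Tmsb4x, Rnaset2b and Slc50a1 hold 20, 23 and 22 CG (ratios 0.988, 0.741 and 0.799), whereas those of Krt79 and Fshr hold 3 and 6 (0.107 and 0.500). Tmsb4x, with the largest difference among the named rises larger in PRC1-CD, thus goes against the median of its class. The E-box CACGTG, searched on both strands, was found in 11.0% of promoters of rises larger in PRC1-CD, 13.7% of rises in both and 11.3% of all tested genes. The E2F motif GCGGGAA, on both strands, was found in 4.74%, 9.74% and 8.76%. Among genes with both control means under 1 RPKM these E2F shares were 4.68%, 9.51% and 5.95%. Both motifs hold a CG, and the motif shares are not matched for the CpG content in which the classes differ. The 2 motifs do not overlap in letters, and of the 5 printed promoters that of Fshr holds the E-box.

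On the X chromosome 14.3% of 476 tested genes had a difference above 0, against 8.17% of all placed genes, and chromosome 6 had 10.6%. Within 10 Mb of the targeted genes the share called in either direction was 11.7% around Pcgf1 and 7.09% around Pcgf6. Around the catalytic subunits it was 10.9% for Ring1 and 9.46% for Rnf2, against 10.9% of all tested genes. Within 1 Mb of Ring1, 4 of 50 tested neighbours (8.0%) were called, all above 0, against 10.9% of all tested genes. These, named after their values were seen, were Rab11b and the class II histocompatibility genes H2-Aa, H2-Ab1 and H2-DMb1. Their differences were 0.73, 1.94, 1.48 and 1.14, with DKO changes of 0.08, −0.28, 0.00 and 0.00.

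TKO oocytes, which share their WT libraries with DKO, gave further values for genes described above. Krt79 stood at 30.5, 12.1 and 19.9 RPKM in TKO, all above WT and near the PRC1-CD libraries. Fshr stood at 4.86, 7.18 and 7.18 RPKM in TKO, above WT. Krt73 stood at 11.1, 16.1 and 11.5 RPKM in TKO, all above WT (change 1.88, limma adjusted p = 0.000135). Fabp7 stood at 11.02, 26.9 and 17.2 RPKM in TKO and rose by 0.90 (limma adjusted p = 0.0186), with 1 TKO library inside the range of WT. H2-Bl did not pass 0.03 RPKM in TKO. Zscan4c in TKO, at 2.67, 1.27 and 0.94 RPKM, lay above all DKO libraries and overlapped WT. Srp68 in TKO, at 2.76 to 4.96 RPKM, lay above WT and below the DKO libraries.

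Morulae from Pcgf1/6 maternal knockouts are libraries that the classes did not use. Among 345 rises larger in PRC1-CD that were tested in morulae, the matDKO minus WT change was called up in 2 and down in 17, or 0.58% and 4.93% (limma, 10 libraries a group), against 0.329% and 1.41% of all 13056 genes tested in morulae and 0.261% and 1.66% of the 9585 also tested here. Among 93 rises larger in DKO it was called up in 1 (1.08%) and down in 3 (3.23%). Falls larger in PRC1-CD were called down in 2.65% of 151 and falls larger in DKO in 3.9% of 77. All 4 classes thus lay above the 1.66%, but so did shared rises (2.06% of 243) and shared falls (2.38% of 168). These shares rest on few genes and carry no test. The falls larger in DKO include the knocked-out Pcgf1 itself, which was called down in matDKO morulae (limma adjusted p = 0.00184). Lbx2 rose in matDKO morulae by 1.38 (limma adjusted p = 0.0207), and Plac1 fell by 2.74 (limma adjusted p = 0.00135).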

How the data were processed

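RPKM values of full-grown oocytes and TPM-scaled values of morulae were used as the authors deposited them. The deposited RPKM tables hold no counts, so depth is unknown and no counting interval is given. The morula values are headed RPKM, but the deposited columns each sum to the total that TPM have, so they are treated as TPM. The genome builds mm10 and GRCm38 stand in the submitters' processing notes, together with featureCounts 1.6.0 and RSEM 1.3.1 for counting, the aligner STAR in releases 2.7.3 and 2.7.6, and the trimmer Trim Galore 0.6.4. No source used here ties a tool to a table. Per the labels' protocols, catalytic-dead set libraries came from 10 pooled oocytes by SMART-Seq v4 and Nextera XT, which keep no strand.

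The oocyte tables were joined by symbol. limma 3.58.1 (R 4.3.3, trended variances, no block) was fitted on log2(RPKM + 1) of 10 libraries over genes with a group mean of at least 1, with Benjamini-Hochberg adjustment over all tested genes and calls at adjusted p under 0.05 (two-sided); fold changes on this scale understate low genes. The fit was tested on simulated data. Replicate numbers were not taken as pairs in this fit. Members and lists were chosen with earlier results of these data known. Named genes were the largest differences of each class whose mutant and control libraries did not overlap (10 per rise class, 8 per fall class, 6 shared rises, 4 shared falls), the targeted genes and up to 4 members of each list, clone names left out. Alternatives covered the pseudocount, filter, scaling, separate fits, TKO libraries, controls within 2-fold, the replicate block and each library left out.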

Additional observations from a re-analysis of the deposited data

Results flagged for a closer look

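Changes of opposite direction under the 2 mutants were singled out because the difference itself was tested. 112 genes rose in PRC1-CD and fell in DKO (14 of them passed the level filter through PRC1-CD alone), and 24 fell in PRC1-CD and rose in DKO. Among them the difference was 3.84 for Prl8a2, the decidual hormone, and 3.83 for Zscan4c, of the 2-cell embryo, both with PRC1-CD above and DKO below their controls. It was −9.07 for Rnaset2b, a lysosomal ribonuclease, and −2.82 for Snora43, a small nucleolar RNA, both with unlike controls: PRC1-WT stood near DKO and PRC1-CD near WT. The cause of the crossed levels was not tested.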

How the results depend on the processing

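No called difference reversed under any of 19 other settings. With a mean of 1 RPKM in each table, 509 genes were above 0 and 417 rose more in PRC1-CD. Quantile normalisation gave 582 below 0 and 462 falls larger in PRC1-CD, and separate fits 140 of the latter. Leaving out 1 library at a time gave 892 to 1166 above 0, 223 to 568 below 0, 793 to 1044 rises larger in PRC1-CD, 77 to 168 rises larger in DKO, 152 to 432 falls larger in PRC1-CD and 149 to 235 falls larger in DKO. The calls below 0 moved by over 1.5 times without the second PRC1-WT library (568), any 1 WT library (242, 241 and 223) or the last-numbered DKO library (234). Of 129 genes followed, 44 changed call under at least 1 setting, 18 of them without the second PRC1-CD library.

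With the replicate block 1273 differences were called, 996 above and 277 below 0, against 1492, and 1159 were shared. In their deviations from the group means, same-numbered libraries correlated at 0.0898 in the catalytic-dead set and at 0.0148, −0.0532 and 0.0977 in the knockout set. With 2 libraries a group, both same-numbered pairs must give 1 value and unlike-numbered pairs its negative. Unlike-numbered pairs of the knockout set ran from −0.083 to 0.0649. These values cannot show whether libraries were paired. With 2 libraries in each group of the catalytic-dead set, leaving 1 out assumes that the lone library varies like the other groups. Depth is unknown, which limits statements on genes listed near 0.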
